A study of Homo sapiens with 39 samples.

Results

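The genes described here are 44 genes of the Wnt signalling pathway, from the secreted ligands to the transcription factors that carry the signal in the nucleus, out of 63187 genes in a count table of C4-2B cells. They were taken by gene symbol from a list of pathway members. They comprised 11 Wnt ligands, 8 Frizzled receptors, 5 co-receptors and alternative receptors, 5 secreted antagonists, 5 genes of the R-spondin axis, 6 cytoplasmic components and 4 TCF/LEF factors. Of the 44, 37 reached 10 counts in at least 1 of the 39 libraries and are called measured. The other 7 (WNT1, WNT5B, WNT11, DKK3, WIF1, RSPO3 and LGR5) stayed under 10 counts in every library and are not described further. Tests were run on 36 of the genes in the drug panel and 33 in the time course, since a filter on low counts removed the rest. That filter can pass a gene through the group where it is high, so the tested genes are not a neutral sample of the 44.

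C4-2B is a castration-resistant human prostate cancer cell line derived from LNCaP. All groups, controls included, were grown in RPMI 1640 with 10% fetal bovine serum, which the labels do not describe as stripped of hormones. In the drug panel, cells were exposed for 5 days to DMSO vehicle, to a hormonal agent (ARPi), to a PARP inhibitor (PARPi), or to one of each. The ARPi were abiraterone at 5 µM, which blocks androgen synthesis, and enzalutamide at 20 µM, an antiandrogen. The PARPi were olaparib at 1 µM and talazoparib at 10 nM, and the combinations were abiraterone with olaparib and enzalutamide with talazoparib. In the time course, cells received vehicle, 1 µM or 5 µM olaparib for 1 day or 5 days. Each of the 13 groups held 3 libraries. All came from a single cell line, and the labels do not say that replicates were separate cultures, so p-values measure only the spread between these libraries, which may be technical.

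Wnt ligands are secreted glycoproteins that bind Frizzled receptors on the cell surface together with a co-receptor, LRP5 or LRP6. This stops a cytoplasmic complex built on AXIN and APC from marking β-catenin, the product of CTNNB1, for destruction, and β-catenin then enters the nucleus and acts with TCF/LEF factors. Other ligands, WNT5A among them, act mainly through ROR1, ROR2 or RYK without β-catenin. In prostate cancer, Wnt signalling is known for mutations of APC, CTNNB1 and RNF43 in advanced disease.

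Library totals ran from 26932205 to 49833473 counts in the panel and from 34214001 to 44893664 in the time course. The prostate luminal markers KLK3, KLK2, TMPRSS2, FOLH1, HOXB13, KRT8, KRT18 and EPCAM were present in every library, with KLK3 (prostate-specific antigen) between 289 and 1902 CPM, the count scaled to a common library total. KLK3 changed by a log2 fold change of -1.58 under abiraterone, -2.25 under enzalutamide, 0.18 under olaparib and 0.21 under talazoparib. Among 17 markers of fibroblast, immune, endothelial and neuroendocrine cells, DCN, LUM, CD3E, CHGA and INSM1 did not exceed 2 counts in any library, whereas COL1A1 reached 22.1 CPM, VWF 22.5 CPM and CD68 29.6 CPM. The summed level of the 4 immune markers, of which CD68 was the highest, was 4.81 to 7.54 CPM in DMSO, 2.92 to 4.10 CPM with an ARPi alone and 13.9 to 16.5 CPM with a PARPi alone. The other 3, PTPRC, LYZ and CD3E, did not exceed 1.17, 1.71 and 0.028 CPM in any library, so the higher sums were mostly CD68. At day 5 of the time course the immune sum was 6.15 to 6.68 CPM in vehicle, 16.7 to 18.4 CPM with 1 µM and 28.7 to 31.1 CPM with 5 µM olaparib. The sum of the 5 fibroblast markers was 11.99 to 16.10 CPM in DMSO, 19.9 to 21.8 CPM with an ARPi alone and 23.2 to 24.3 CPM in the combinations. The 3 endothelial markers, nearly all VWF, summed to 13.9 to 16.4 CPM in DMSO, 20.7 to 21.3 CPM with abiraterone and 11.6 to 12.7 CPM with enzalutamide. The 5 neuroendocrine markers summed to 2.38 to 2.85 CPM in DMSO, 1.05 to 1.84 CPM with an ARPi alone and 1.37 to 1.81 CPM with a PARPi alone. The part of these differences in the results below was not tested. In bulk libraries such as these, fewer cells of a type and less RNA per cell cannot be told apart.

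Promoter sequences were available for 29 of the 44 genes, and 3 are shown. DKK1, at no more than 34 counts in any library, and RNF43 were higher with both ARPi. ROR1 had the largest rise with 5 µM olaparib at day 5. DKK1 was also the only Wnt gene whose promoter held the motif marked below. Each sequence spans 250 bases before to 50 bases after the RefSeq start, written 5′ to 3′ on the gene's own strand (GRCh38.p14). Capitals in DKK1 (chr10:52314031-52314330, plus strand) mark CTTTGA on either strand, the core that TCF/LEF factors recognise. RNF43 (chr17:58417485-58417784, minus strand) and ROR1 (chr1:63773767-63774066, plus strand) held no match and are in lower case throughout.
DKK1: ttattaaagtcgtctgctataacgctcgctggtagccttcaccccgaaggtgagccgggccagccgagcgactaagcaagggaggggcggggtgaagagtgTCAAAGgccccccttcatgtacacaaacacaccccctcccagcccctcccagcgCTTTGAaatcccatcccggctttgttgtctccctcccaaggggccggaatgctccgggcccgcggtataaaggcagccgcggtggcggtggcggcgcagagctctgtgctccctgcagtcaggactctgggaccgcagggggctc
RNF43: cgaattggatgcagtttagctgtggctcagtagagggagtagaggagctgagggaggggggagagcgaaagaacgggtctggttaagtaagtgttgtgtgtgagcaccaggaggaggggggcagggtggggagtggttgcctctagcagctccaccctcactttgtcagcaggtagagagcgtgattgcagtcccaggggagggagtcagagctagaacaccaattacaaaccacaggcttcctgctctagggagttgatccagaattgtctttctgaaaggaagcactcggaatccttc
ROR1: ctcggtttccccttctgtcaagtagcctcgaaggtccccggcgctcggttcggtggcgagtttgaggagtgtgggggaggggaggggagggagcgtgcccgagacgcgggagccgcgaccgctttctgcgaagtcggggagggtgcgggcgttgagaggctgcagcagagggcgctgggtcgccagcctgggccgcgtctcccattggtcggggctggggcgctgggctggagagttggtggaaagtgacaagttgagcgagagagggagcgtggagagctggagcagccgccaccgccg

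CTTTGA, searched on both strands, was present in 12.9% of all 35116 promoters of this length. Among the 37 promoters of the Wnt genes, some of which, RNF43 among them, have more than 1 listed start, 1 held it, that of DKK1, with matches that began at -149 and -95 from the start. A pair of CATG cores 6 bases apart, as in p53 sites, was found in none of the 37 and in 0.373% of all promoters. A match is a description of the sequence and not evidence of binding.

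The first comparison asked how each drug alone altered the Wnt genes. With an ARPi the genes moved mainly upward: 23 of 36 rose and 5 fell with abiraterone, and 23 rose and 5 fell with enzalutamide (edgeR quasi-likelihood test, Benjamini-Hochberg adjusted p below 0.05 over all genes tested). Over all 18625 genes tested, 25.8% rose and 27.1% fell with abiraterone, and 27.0% rose and 26.3% fell with enzalutamide. A rise of at least 2-fold was called for 10 Wnt genes with abiraterone and 11 with enzalutamide, against 6.99% and 7.03% of all genes. These counts include genes near 0 in DMSO, such as ROR2 and DKK1, that could be tested only through the groups where they are high. Over genes with 10 counts or more in at least 1 DMSO library, an alternative chosen after seeing the data, 20 of 32 Wnt genes rose with each ARPi, against 25.1% of all genes with abiraterone and 26.4% with enzalutamide. Of these, 7 rose at least 2-fold with abiraterone and 8 with enzalutamide, against 5.12% and 5.19% of all genes. The median log2 fold change of the Wnt genes was 0.39 with abiraterone and 0.41 with enzalutamide, while the median of all genes was 0.00 and 0.02. With a PARPi, 6 rose and 5 fell with olaparib, against 19.6% and 16.0% of all genes, and 4 rose and 8 fell with talazoparib, against 18.4% and 15.4%. Under total count scaling the olaparib counts were 6 and 10, against 15.5% and 20.6% of all genes. In the time course, 3 of 33 rose and 4 fell with 1 µM at day 1 (all genes, 6.30% and 9.52%). That count of 3 rises was 0 with DESeq2, with only the groups compared, with no filter, and without day 1 vehicle replicate 1 or 1 µM replicate 2 or 3. With 5 µM at day 1, 7 rose and 14 fell (21.6% and 23.4%). At day 5, 8 rose and 10 fell with 1 µM (23.4% and 22.9%), and 9 rose and 12 fell with 5 µM (34.4% and 33.9%). Total count scaling turned the 5 µM counts into 9 and 10 at day 1 (27.8% and 18.3%) and 7 and 16 at day 5 (29.3% and 39.9%). Comparisons within an experiment share their vehicle libraries and are not independent of each other.

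**Figure D1:**
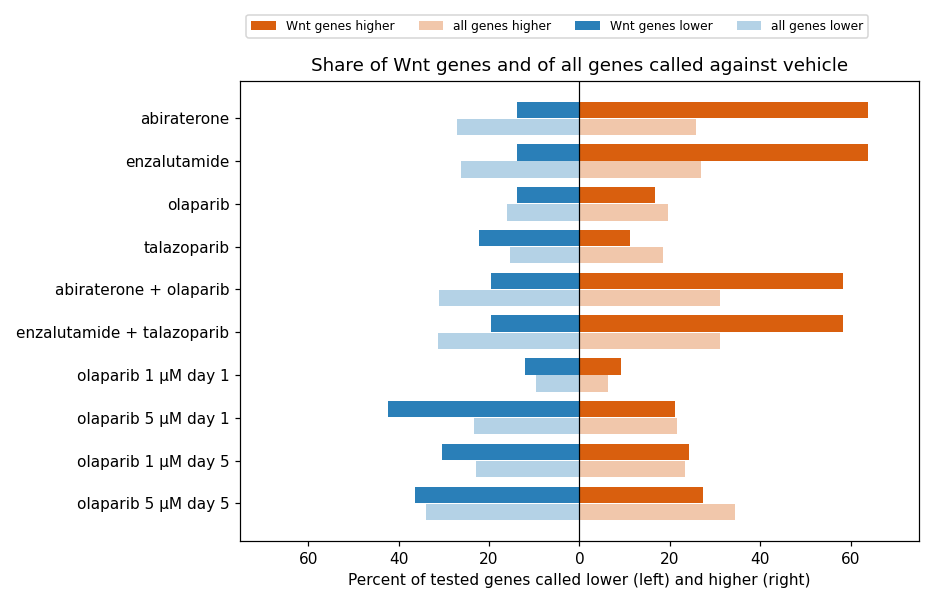
Percent of tested genes called lower (left bars) and higher (right bars) against vehicle for each treatment, for the Wnt genes (dark bars, 36 in the panel and 33 in the time course) and for all genes tested (pale bars). With abiraterone or enzalutamide, 23 of 36 Wnt genes were called higher against 25.8% and 27.0% of all genes.

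**Figure D2:**
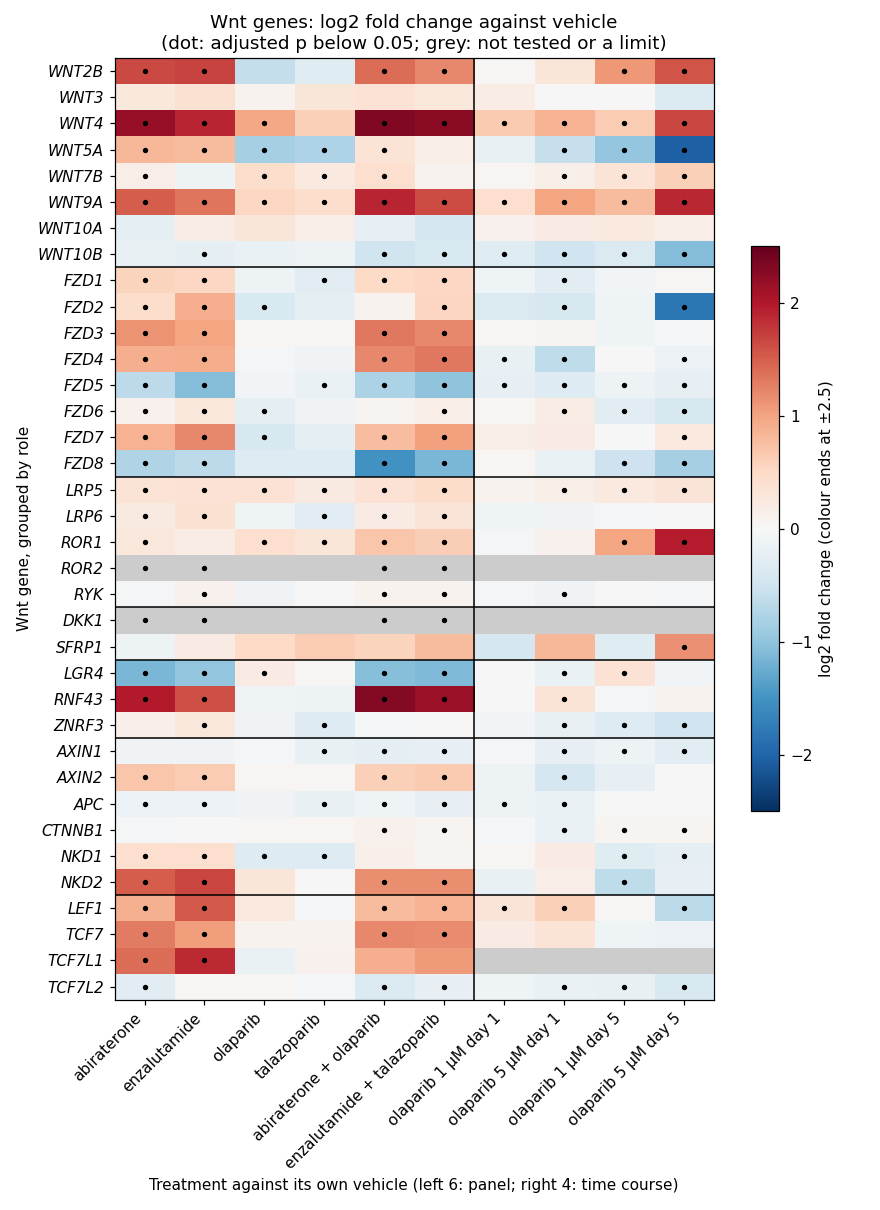
Fitted log2 fold change of each tested Wnt gene (rows, grouped by role) against vehicle in the 10 comparisons (columns); red is higher, blue is lower, a dot marks an adjusted p below 0.05, and grey cells were not tested or rest on a vehicle group of at most 1 count. Most red cells lie in the ARPi and combination columns, and WNT5A is red with an ARPi and blue with a PARPi.

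Among the ligands, WNT2B, WNT4, WNT5A and WNT9A rose with both ARPi. WNT4 (chr1:22117313-22143969, minus strand), a ligand of kidney and female reproductive tract development, stood at 0.374, 0.466 and 0.380 CPM in the DMSO libraries, at 1.98, 1.72 and 1.85 with abiraterone and at 1.13, 1.82 and 1.58 with enzalutamide, with no overlap between treated and vehicle libraries. Its log2 fold change was 2.17 (SE 0.25, adjusted p = 2.99e-09) with abiraterone and 1.90 (SE 0.25, adjusted p = 5.51e-08) with enzalutamide. WNT9A (chr1:227918656-227947932, minus strand), known from joint formation, rose from 1.90, 1.66 and 1.77 CPM in DMSO to 4.97, 5.27 and 4.96 with abiraterone and 4.87, 4.93 and 3.73 with enzalutamide. Its log2 fold change was 1.51 (SE 0.14, adjusted p = 2.93e-11) and 1.34 (SE 0.14, adjusted p = 4.72e-10), respectively. WNT2B (chr1:112466541-112530165, plus strand), which signals through β-catenin, was a low-count gene at 0.408, 0.524 and 0.608 CPM in DMSO, 1.34, 1.68 and 1.91 with abiraterone and 1.53, 1.51 and 2.01 with enzalutamide. The changes were 1.66 (SE 0.25, adjusted p = 6.09e-07) and 1.70 (SE 0.25, adjusted p = 3.22e-07), and all 12 libraries with an ARPi lay above the 9 without. WNT2B overlaps ST7L on the genome, and whether reads were shared was not tested.

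WNT5A (chr3:55465715-55490539, minus strand), a ligand of the β-catenin-independent pathways, moved in opposite directions under the drug classes. It was at 7.40, 6.93 and 6.99 CPM in DMSO, 11.7, 13.4 and 12.7 with abiraterone and 12.2, 11.6 and 12.9 with enzalutamide. With olaparib it was at 4.03, 3.70 and 4.18 CPM and with talazoparib at 4.11, 4.09 and 4.26. The groups did not overlap: all PARPi libraries lay below all DMSO libraries, and all ARPi libraries lay above them. The log2 fold change was 0.83 (SE 0.10, adjusted p = 3.73e-09) under abiraterone and 0.79 (SE 0.10, adjusted p = 1.01e-08) under enzalutamide, against -0.84 (SE 0.11, adjusted p = 7.22e-08) under olaparib and -0.77 (SE 0.10, adjusted p = 2.97e-07) under talazoparib. Under the combinations it lay between, at 8.30, 8.98 and 9.64 CPM with abiraterone plus olaparib and 9.44, 6.86 and 7.52 with enzalutamide plus talazoparib. The difference from DMSO was 0.34 (SE 0.10, adjusted p = 0.00347) for the former and 0.17 (SE 0.10, adjusted p = 0.134) for the latter, which did not pass the test. An antisense gene, WNT5A-AS1, overlaps WNT5A on the opposite strand.

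WNT7B and WNT10B were the ligands of highest level per length. WNT7B reached 4.51 ± 0.0720 CPM per kb of exon in DMSO (mean ± SD, n = 3) and made up 44.5% ± 0.927 of the summed ligand level, and WNT10B reached 3.06 ± 0.292 CPM per kb and 30.1% ± 1.92. Both are ligands that act through β-catenin. WNT7B was higher with both PARPi, with log2 fold changes of 0.44 (SE 0.05, adjusted p = 4.39e-08) for olaparib and 0.25 (SE 0.06, adjusted p = 0.000522) for talazoparib. WNT7B with abiraterone was at 0.16 (SE 0.06, adjusted p = 0.0183), a call lost without abiraterone replicate A (0.11, adjusted p = 0.131) or DMSO replicate A (0.15, adjusted p = 0.0521). WNT10B with enzalutamide was at -0.24 (SE 0.10, adjusted p = 0.0327), a call lost on leaving out DMSO replicate C (-0.16, adjusted p = 0.215), enzalutamide replicate A (-0.21) or enzalutamide replicate B (-0.23). With both combinations WNT10B was called lower, and its 6 libraries there lay at 4.95 to 6.40 CPM, below DMSO at 7.30 to 8.79. WNT3 and WNT10A, at 1.06 to 3.66 CPM in all libraries, passed the test in no comparison with vehicle.

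Olaparib and talazoparib also raised WNT9A, from the DMSO levels above to 2.26, 2.85 and 2.49 CPM and 2.90, 2.28 and 2.06 CPM. This gave 0.51 (SE 0.15, adjusted p = 0.00643) with olaparib and 0.43 (SE 0.15, adjusted p = 0.0223) with talazoparib. The olaparib call was lost without olaparib replicate B (0.41, adjusted p = 0.0627), and the talazoparib call without talazoparib replicate A (0.27, adjusted p = 0.211), DMSO replicate B (0.39) or DMSO replicate C (0.43). WNT4 was at 0.790, 0.847 and 0.745 CPM with olaparib, a log2 fold change of 0.96 (SE 0.27, adjusted p = 0.00423), and at 0.402, 0.769 and 0.657 CPM with talazoparib, where 0.59 (SE 0.27, adjusted p = 0.0895) did not pass the test.

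**Figure D3:**
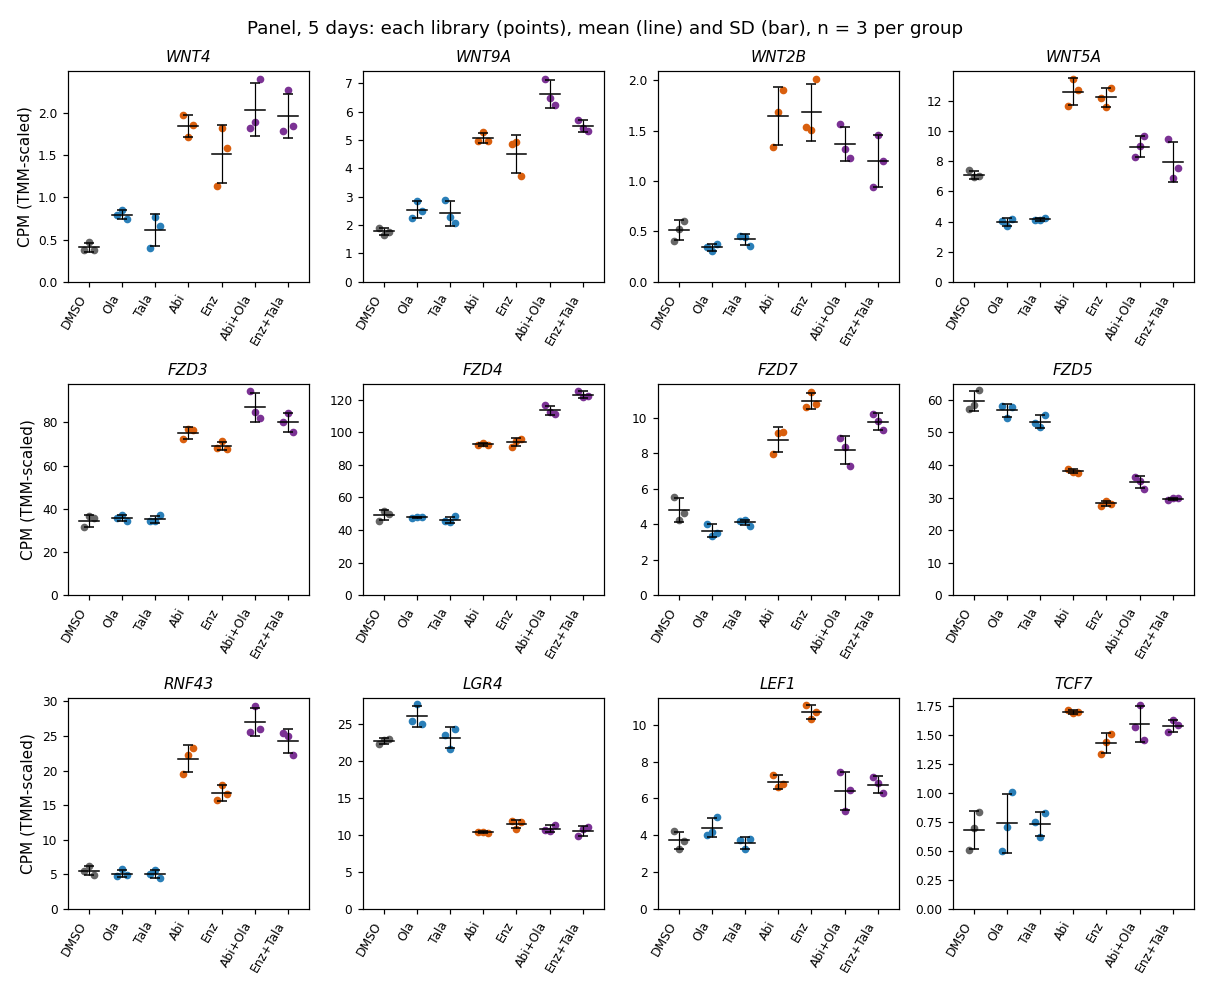
Level of 12 Wnt genes in the drug panel in TMM-scaled CPM (vertical axis, from 0) for DMSO (grey), PARPi (blue), ARPi (orange) and combinations (purple); points are libraries, lines means and bars SD, n = 3 per group. In the RNF43, FZD3, FZD4, FZD7, FZD5 and LGR4 panels the 12 libraries with an ARPi do not overlap the 9 without.

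The time course showed the ligand responses to olaparib by dose and day. WNT5A was lower with dose and time, from 7.47, 6.77 and 7.28 CPM in day 1 vehicle to 6.03, 6.34 and 6.44 with 1 µM and 4.71, 5.12 and 4.67 with 5 µM. At day 5 it was at 6.35, 7.04 and 6.79 CPM in vehicle, 3.35, 3.44 and 3.49 with 1 µM and 1.46, 1.68 and 1.77 with 5 µM. The log2 fold change was -0.19 (SE 0.09, adjusted p = 0.145), -0.57 (SE 0.09, adjusted p = 2.25e-06), -0.97 (SE 0.09, adjusted p = 6.35e-11) and -2.03 (SE 0.11, adjusted p = 3.56e-19) for 1 µM day 1, 5 µM day 1, 1 µM day 5 and 5 µM day 5, of which the first did not pass the test. The effect differed between days at both doses, by -0.78 (SE 0.13, adjusted p = 9.68e-06) for 1 µM and -1.47 (SE 0.14, adjusted p = 2.78e-11) for 5 µM (day 5 minus day 1).

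WNT9A rose under the same treatments. It stood at 1.62, 1.70 and 1.53 CPM in day 1 vehicle and 3.07, 3.40 and 3.15 with 5 µM, and at 1.54, 2.03 and 1.75 CPM in day 5 vehicle, 2.76, 3.17 and 3.27 with 1 µM and 6.66, 6.15 and 6.78 with 5 µM. At 5 µM its log2 fold change was 0.98 (SE 0.13, adjusted p = 8.35e-08) at day 1 and 1.88 (SE 0.12, adjusted p = 3.62e-16) at day 5. WNT4 at 5 µM rose by 0.87 (SE 0.23, adjusted p = 0.00178) at day 1 and 1.68 (SE 0.21, adjusted p = 9.78e-09) at day 5, reaching 2.10, 1.49 and 1.97 CPM against 0.617, 0.596 and 0.515 in vehicle. WNT2B at day 5 was at 0.375, 0.162 and 0.0515 CPM in vehicle, from 17, 6 and 2 counts, and at 0.70, 0.561 and 0.563 with 5 µM, a log2 fold change of 1.57 (SE 0.39, adjusted p = 0.000572). That size rests on few vehicle counts: it was 2.48 without vehicle replicate 1 and 1.13 without vehicle replicate 3, and the call held in each. At 1 µM, several calls for these 3 genes rested on single libraries. At day 1 the call of WNT4 (0.65, SE 0.23) was lost on leaving out any of the 6 libraries but vehicle replicate 3 (0.48 to 0.67), that of WNT9A (0.43, SE 0.14) without vehicle replicate 1 or 3 or 1 µM replicate 2 or 3 (0.36 to 0.43), and both under DESeq2 (adjusted p = 0.107 and 0.0589). At day 5 the calls of WNT4 (0.64, SE 0.23) and WNT2B (1.09, SE 0.40) were lost under DESeq2 too (adjusted p = 0.068 and 0.0574). That of WNT4 was also lost without vehicle replicate 3 (0.57) or 1 µM replicate 1 or 3 (0.61 and 0.53), and that of WNT2B without vehicle replicate 2 or 3 (0.96 and 0.65) or 1 µM replicate 1 (0.80), while without vehicle replicate 1 it was 2.01.

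WNT10B fell with olaparib at all 4 settings of the time course, but passed the test with neither PARPi alone in the panel. There it was at 6.66 to 7.48 CPM with a PARPi alone and 7.30 to 8.79 in DMSO. In the time course its level was 11.5, 11.1 and 11.4 CPM in day 1 vehicle, 9.52, 9.91 and 9.75 in day 5 vehicle and 4.84, 4.66 and 4.30 with 5 µM at day 5. Its changes ran from -0.30 (SE 0.07, adjusted p = 0.00132) with 1 µM at day 1 to -1.08 (SE 0.07, adjusted p = 1.31e-15) with 5 µM at day 5, and vehicle and 5 µM libraries did not overlap. WNT7B rose to 37.6, 38.3 and 39.6 CPM with 5 µM at day 5 from 24.6, 26.1 and 25.5 in vehicle, a change of 0.60 (SE 0.04, adjusted p = 7.36e-17).

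**Figure D4:**
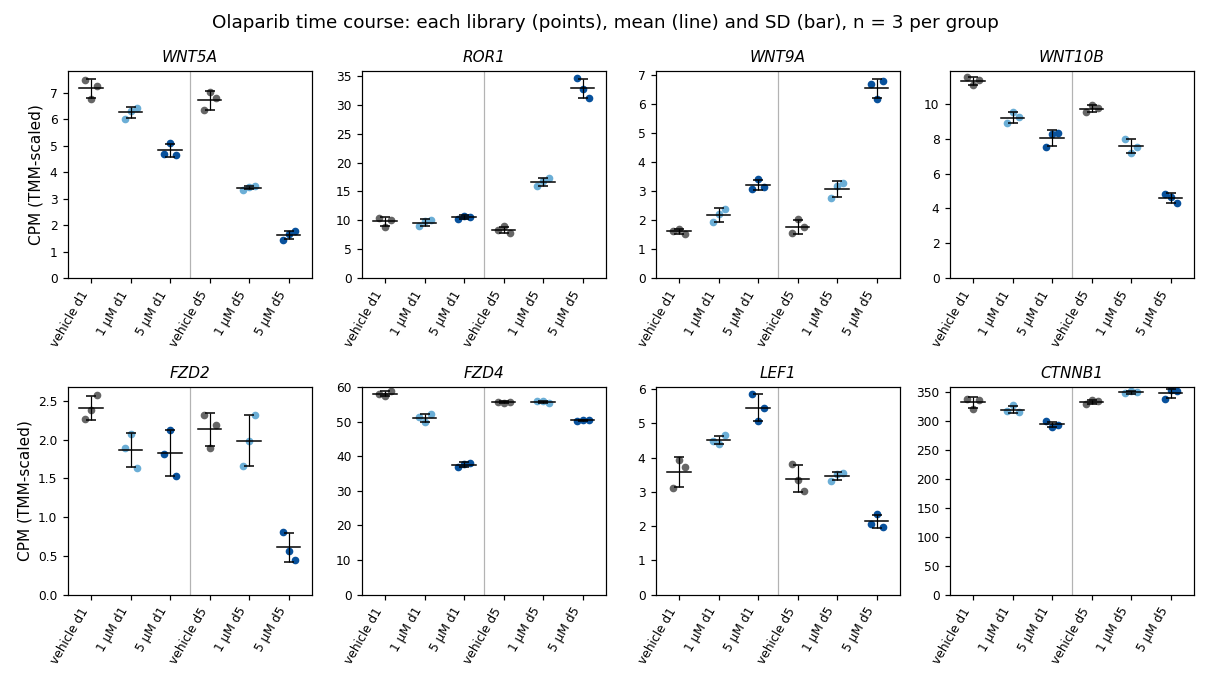
Level of 8 Wnt genes in the olaparib time course in TMM-scaled CPM (vertical axis, from 0) for vehicle (grey), 1 µM (light blue) and 5 µM (dark blue) at day 1 (left of the line) and day 5 (right); points are libraries, lines means and bars SD, n = 3 per group. WNT5A, WNT10B and FZD2 are lowest and ROR1 and WNT9A highest with 5 µM at day 5, while CTNNB1 stays between 290.3 and 353 CPM.

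All 8 Frizzled receptors, the surface receptors that bind Wnt ligands, passed the test with each ARPi alone, where 25.8% of all genes were higher and 27.1% lower with abiraterone, and 27.0% and 26.3% with enzalutamide. FZD1, FZD2, FZD3, FZD4, FZD6 and FZD7 were higher, and FZD5 and FZD8 were lower. FZD3 (chr8:28494205-28574267, plus strand) was at 31.4, 36.5 and 35.8 CPM in DMSO, 72.1, 76.9 and 76.2 with abiraterone and 68.1, 71.1 and 67.7 with enzalutamide. FZD3 changed by 1.11 (SE 0.06, adjusted p = 4.69e-15) and 0.99 (SE 0.06, adjusted p = 4.94e-14). FZD4 (chr11:86945679-86955395, minus strand), also the receptor of norrin in retinal vessels, went from 45.8, 51.4 and 50.04 CPM to 92.3, 93.7 and 91.9 and 91.0, 94.8 and 95.6, a change of 0.91 (SE 0.04, adjusted p = 4.44e-21) and 0.93 (SE 0.04, adjusted p = 1.74e-21). FZD4 overlaps PRSS23 on the genome. FZD7 (chr2:202033855-202038441, plus strand) went from 5.54, 4.22 and 4.63 CPM to 7.96, 9.15 and 9.18 and 10.6, 11.5 and 10.8, a change of 0.87 (SE 0.10, adjusted p = 4.93e-09) and 1.20 (SE 0.10, adjusted p = 1.73e-12). For these 3 receptors every library with an ARPi, combinations included, exceeded every library without one.

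FZD5 (chr2:207762598-207769906, minus strand) moved the other way. It was at 57.3, 58.5 and 63.0 CPM in DMSO, 38.8, 37.8 and 37.6 with abiraterone and 27.5, 29.1 and 28.1 with enzalutamide, again without overlap. It changed by -0.65 (SE 0.04, adjusted p = 5.73e-15) and -1.08 (SE 0.04, adjusted p = 5.33e-21), and enzalutamide minus abiraterone was -0.43 (SE 0.05, adjusted p = 8.93e-09). FZD8 (chr10:35638247-35642296, minus strand) went from 2.11, 2.30 and 1.92 CPM to 1.05, 1.14 and 1.54 and 1.03, 1.65 and 1.29. Its change was -0.76 (SE 0.22, adjusted p = 0.00442) and -0.66 (SE 0.22, adjusted p = 0.0118), and the enzalutamide call was lost without enzalutamide replicate A (-0.52, adjusted p = 0.0711). FZD2 (chr17:44557484-44561262, plus strand) was at 3.02, 2.88 and 2.56 CPM in DMSO, 4.13, 3.65 and 3.60 with abiraterone and 5.67, 5.61 and 4.64 with enzalutamide. Its rise was 0.43 (SE 0.13, adjusted p = 0.00636) and 0.91 (SE 0.13, adjusted p = 2.34e-07), larger with enzalutamide by 0.48 (SE 0.13, adjusted p = 0.00547). FZD1 rose by 0.56 (SE 0.05) and 0.52 (SE 0.05). FZD6 rose by 0.29 (SE 0.04) with enzalutamide and by 0.10 (SE 0.04) with abiraterone, the latter lost without abiraterone replicate C (0.09, adjusted p = 0.0879), DMSO replicate A or DMSO replicate C (0.10 in each).

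On a per-length scale, the order of the Frizzled receptors differed between groups. FZD6 was the highest in DMSO at 18.6 ± 0.236 CPM per kb of exon and 44.1% ± 0.727 of the family sum, followed by FZD5 at 8.47 ± 0.428 CPM per kb (20.1% ± 0.745) and FZD4 at 6.64 ± 0.399 CPM per kb (15.8% ± 0.676). With abiraterone FZD4 came second at 24.2% ± 0.470 of the family and FZD5 was at 10.4% ± 0.220. With enzalutamide these shares were 23.7% ± 0.823 and 7.47% ± 0.131, and with enzalutamide plus talazoparib 29.6% ± 0.542 and 7.48% ± 0.225. In DMSO the FZD4 share was 15.1% to 16.4% and the FZD5 share 19.6% to 20.95%, whereas in every group with an ARPi the lowest FZD4 share (23.1%, enzalutamide) was above the highest FZD5 share (10.6%, abiraterone). The family sum was 42.1 CPM per kb in DMSO, 51.9 with abiraterone and 53.7 with enzalutamide.

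**Figure D5:**
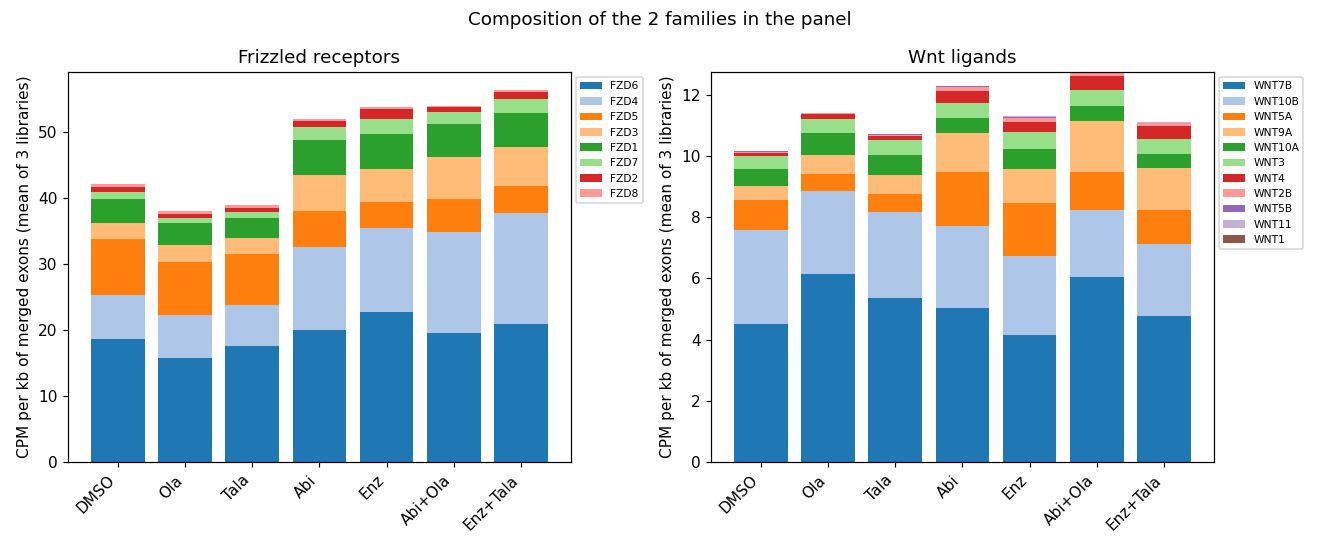
Mean level of each Frizzled receptor (left) and Wnt ligand (right) in the panel groups, in TMM-scaled CPM per kb of merged exons, stacked (n = 3 libraries per group; error is not drawn). In groups with an ARPi the FZD4 and FZD3 segments are taller and the FZD5 segment shorter than in DMSO, and WNT7B and WNT10B are the largest ligand segments in DMSO (44.5% and 30.1% of the ligand sum).

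With 5 µM olaparib at day 5, FZD2, FZD4, FZD5, FZD6 and FZD8 fell and FZD7 rose (0.24, SE 0.10). The FZD7 call was lost under DESeq2 (adjusted p = 0.0585), with no filter (adjusted p = 0.0544), under total count scaling (0.16, adjusted p = 0.142) and without day 5 vehicle replicate 3 or 5 µM replicate 2 (0.18 and 0.19). FZD2 was at 2.31, 1.90 and 2.19 CPM in day 5 vehicle and 0.812, 0.561 and 0.450 with 5 µM, a log2 fold change of -1.81 (SE 0.20, adjusted p = 2.63e-10), while 1 µM at day 5 was at 1.66, 1.98 and 2.32 CPM and -0.11 (SE 0.17, adjusted p = 0.644). FZD4 at day 1 was at 58.1, 57.5 and 58.9 CPM in vehicle and 36.8, 37.7 and 38.1 with 5 µM, and at day 5 at 55.8, 55.4 and 55.8 and 50.2, 50.5 and 50.4. FZD4 changed by -0.63 (SE 0.03, adjusted p = 7.10e-20) at day 1 and -0.15 (SE 0.03, adjusted p = 2.36e-05) at day 5. FZD6 changed sign between days at 5 µM, from 0.19 (SE 0.03, adjusted p = 5.82e-07) at day 1 to -0.40 (SE 0.03, adjusted p = 4.74e-15) at day 5. FZD8 fell at day 5, with -0.52 (SE 0.15) at 1 µM and -0.83 (SE 0.16) at 5 µM. FZD5 was lower at all 4 settings, at -0.20 (SE 0.04) and -0.33 (SE 0.04) with 1 and 5 µM at day 1 and -0.13 (SE 0.04) and -0.21 (SE 0.04) at day 5. FZD1 was lower with 5 µM at day 1 (-0.29, SE 0.04), and at day 5 it was at 0.04 (SE 0.04), not past the test. FZD3, which more than doubled with abiraterone, did not pass the test in any time course comparison (-0.11 to 0.07). In the panel, FZD6 (-0.24, SE 0.04) and FZD7 (-0.39, SE 0.11) were lower with olaparib, and FZD7 lost its call without DMSO replicate A (-0.28, adjusted p = 0.0588). FZD2 with olaparib in the panel was at -0.37 (SE 0.14, adjusted p = 0.0331) and lost its call under DESeq2 (adjusted p = 0.0592) and without DMSO replicate A or B or olaparib replicate A or C (-0.32 to -0.38).

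Among the co-receptors, LRP5 (chr11:68312591-68449275, plus strand) and LRP6 (chr12:12116025-12267044, minus strand), which act with Frizzled on the β-catenin route, both rose with an ARPi. LRP6 was at 48.3, 53.9 and 56.3 CPM in DMSO, 59.1, 63.4 and 62.5 with abiraterone and 67.9, 67.2 and 70.7 with enzalutamide. LRP6 rose by 0.22 (SE 0.04, adjusted p = 4.74e-05) and 0.37 (SE 0.04, adjusted p = 1.92e-09). With talazoparib LRP6 fell to 43.1, 44.04 and 44.6 CPM, a change of -0.27 (SE 0.04, adjusted p = 5.14e-06), and with olaparib it was at -0.11 (SE 0.04, adjusted p = 0.0530). LRP5 rose under all 4 single drugs, by 0.35 (SE 0.04) with abiraterone, 0.36 (SE 0.04) with enzalutamide, 0.36 (SE 0.04) with olaparib and 0.22 (SE 0.04) with talazoparib. In the time course LRP5 rose by 0.25 (SE 0.04) with 1 µM and 0.32 (SE 0.04) with 5 µM at day 5, and by 0.14 (SE 0.04) with 5 µM at day 1, while LRP6 passed the test in none of the 4 comparisons. RYK, a receptor of the tyrosine kinase family, ran from 59.6 to 73.7 CPM over all libraries. RYK was called higher with enzalutamide (0.10, SE 0.04) and with the abiraterone and enzalutamide combinations (0.10, SE 0.04, and 0.09, SE 0.04), and lower with 5 µM olaparib at day 1 (-0.10, SE 0.03). All of these calls were lost on leaving out a single library: DMSO replicate A for the first 3, DMSO replicate C for both combinations, enzalutamide replicate C, abiraterone plus olaparib replicate B or C, enzalutamide plus talazoparib replicate A, or 5 µM replicate 1.

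ROR1 (chr1:63774017-64181498, plus strand), a receptor of WNT5A, had the largest fitted rise of the 33 tested genes with 5 µM olaparib at day 5. It was at 10.5, 8.92 and 10.1 CPM in day 1 vehicle, 8.98, 9.88 and 10.0 with 1 µM and 10.2, 10.8 and 10.6 with 5 µM, with overlapping libraries. At day 5 it was at 8.26, 8.99 and 7.90 CPM in vehicle, 15.9, 16.9 and 17.3 with 1 µM and 34.5, 32.8 and 31.2 with 5 µM, with no overlap between any of the 3 groups. At day 5 the log2 fold change was 0.99 (SE 0.06, adjusted p = 1.48e-15) with 1 µM and 1.97 (SE 0.06, adjusted p = 1.97e-26) with 5 µM, and at day 1 -0.03 (SE 0.07, adjusted p = 0.863) and 0.10 (SE 0.07, adjusted p = 0.231). The day 5 effect exceeded the day 1 effect by 1.02 (SE 0.09, adjusted p = 5.15e-11) at 1 µM and 1.87 (SE 0.09, adjusted p = 1.62e-19) at 5 µM. In the same day 5 libraries WNT5A was lower and the summed immune markers, mostly CD68, were higher, as given above. The part of these markers was not tested.

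In the panel the ROR1 differences were smaller. DMSO libraries held 6.59, 8.82 and 7.42 CPM, olaparib 10.1, 9.74 and 10.97 and talazoparib 10.0, 8.71 and 9.56, and the log2 fold change was 0.43 (SE 0.09, adjusted p = 0.000361) and 0.30 (SE 0.09, adjusted p = 0.00979). The talazoparib range overlapped that of DMSO, and its call was lost without DMSO replicate A (0.22, adjusted p = 0.0876) or talazoparib replicate A (0.24). Abiraterone gave 0.28 (SE 0.09, adjusted p = 0.0138), lost without DMSO replicate A (0.19), abiraterone replicate B (0.22) or DMSO replicate C (0.25), and enzalutamide gave 0.19 (SE 0.09, adjusted p = 0.0921). The combinations stood at 12.4, 12.6 and 11.9 and 11.7, 12.7 and 10.9 CPM, all above DMSO. The antisense gene ROR1-AS1 overlaps ROR1.

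ROR2 (chr9:91563091-91950228, minus strand), the paralogue of ROR1, was close to undetected without an ARPi. Counts were 1, 0 and 0 in the DMSO libraries, 32, 20 and 27 with abiraterone, 33, 48 and 37 with enzalutamide, 12, 22 and 8 with abiraterone plus olaparib and 51, 42 and 37 with enzalutamide plus talazoparib. With a PARPi alone counts ran from 1 to 3. As the 3 DMSO libraries held 1 count in all, that of replicate A, no fold and no p-value is given from the fit. The ratio of pooled counts per TMM-scaled library total was 83.0 (95% exact interval, 14.5 to 3317) for abiraterone and 107 (95% exact interval, 18.8 to 4253) for enzalutamide. These intervals cover counting error only, and without DMSO replicate A no ratio can be formed. With abiraterone plus olaparib ROR2 was lower than with abiraterone alone, by a log2 difference of -0.91 (SE 0.34, adjusted p = 0.0396), a call lost under DESeq2 (adjusted p = 0.0569) and without replicate A or C of either group (-0.72 to -0.89). At 0 to 6 counts a library in the time course, ROR2 was not tested there.

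DKK1 (chr10:52314281-52318042, plus strand), the secreted antagonist that binds LRP5 and LRP6 and whose promoter is printed above, showed the same kind of pattern at low counts. Counts were 1, 0 and 0 in DMSO, 34, 23 and 23 with abiraterone, 11, 13 and 13 with enzalutamide, 25, 32 and 14 with abiraterone plus olaparib and 14, 19 and 6 with enzalutamide plus talazoparib. With a PARPi alone counts ran from 0 to 3. The ratio of pooled counts to DMSO, per TMM-scaled library total, was 84.0 (95% exact interval, 14.7 to 3359) for abiraterone and 33.5 (95% exact interval, 5.65 to 1358) for enzalutamide, and here too the only DMSO count was that of replicate A. Enzalutamide and abiraterone differed, by a log2 fold change of -1.30 (SE 0.43, adjusted p = 0.0279) for enzalutamide minus abiraterone, a call lost on leaving out any of the 6 libraries but abiraterone replicate C (-1.13 to -1.38). SFRP1, an antagonist that binds Wnt ligands, held 2 to 16 counts per library and passed the test against vehicle in 1 comparison, 5 µM olaparib at day 5 (1.14, SE 0.41, adjusted p = 0.0131), a call lost under DESeq2 (adjusted p = 0.059) and without day 5 vehicle replicate 2 (0.98, adjusted p = 0.0573). SFRP1 held 9, 5 and 8 counts in day 5 vehicle and 15, 16 and 12 with 5 µM, so it was tested mainly through the 5 µM groups. NOTUM, which inactivates Wnt ligands, did not exceed 14 counts in any library and was not tested.

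In the R-spondin axis, RNF43 (chr17:58353676-58417595, minus strand) and ZNRF3 are ubiquitin ligases that remove Frizzled from the surface, and LGR4 and LGR5 are the receptors through which R-spondins block them. RNF43 was at 5.47, 6.26 and 4.86 CPM in DMSO, 19.5, 22.3 and 23.3 with abiraterone and 15.7, 17.9 and 16.6 with enzalutamide. The log2 fold change was 1.98 (SE 0.10, adjusted p = 3.89e-17) and 1.61 (SE 0.10, adjusted p = 8.37e-15), and enzalutamide minus abiraterone was -0.37 (SE 0.08, adjusted p = 0.00163). With a PARPi alone RNF43 was at 4.69, 5.70 and 4.93 and 4.97, 5.68 and 4.45 CPM and did not pass the test. The combinations reached 25.6, 29.3 and 25.9 CPM with abiraterone plus olaparib and 25.5, 25.1 and 22.2 with enzalutamide plus talazoparib, above every library with the respective ARPi alone. An unnamed gene on the same strand overlaps RNF43, so some of its reads may be shared. Of the 4 time course comparisons with vehicle, RNF43 passed the test in 1, 5 µM at day 1 (0.35, SE 0.09, adjusted p = 0.00221).

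LGR4 (chr11:27365961-27472790, minus strand) fell to less than the DMSO level in all libraries with an ARPi. It was at 22.2, 22.8 and 23.0 CPM in DMSO, 10.4, 10.4 and 10.2 with abiraterone and 11.8, 10.8 and 11.8 with enzalutamide, a change of -1.13 (SE 0.07, adjusted p = 8.06e-17) and -0.98 (SE 0.06, adjusted p = 1.70e-15). With 1 µM olaparib at day 5 it rose to 25.9, 24.4 and 24.7 CPM from 19.6, 19.0 and 20.0 (0.35, SE 0.05, adjusted p = 1.11e-07), and with 5 µM it was at -0.06 (SE 0.05, adjusted p = 0.263). In the panel olaparib gave 0.20 (SE 0.06, adjusted p = 0.00785), a call lost without olaparib replicate B (0.14, adjusted p = 0.104). ZNRF3 rose with enzalutamide (0.28, SE 0.07), fell with talazoparib (-0.33, SE 0.08) and fell at day 5 with 1 µM (-0.33, SE 0.05) and 5 µM olaparib (-0.49, SE 0.05).

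Among the cytoplasmic components, CTNNB1 (chr3:41194741-41260096, plus strand) had the highest counts of the 44 genes and changed little. It was at 328, 314 and 314 CPM in DMSO, 315, 309.6 and 309 with abiraterone and 316, 324 and 313 with enzalutamide, and neither passed the test (-0.04, SE 0.02, and -0.01, SE 0.02). Across all 10 comparisons with vehicle its log2 fold change ran from -0.18 with 5 µM olaparib at day 1 to 0.11 with abiraterone plus olaparib. CTNNB1 passed the test as higher with both combinations and with both olaparib doses at day 5. It was called lower with 5 µM at day 1. APC (chr5:112707518-112846239, plus strand), the scaffold of the destruction complex, was at 60.4, 65.2 and 66.0 CPM in DMSO, 56.1, 59.5 and 58.5 with abiraterone and 57.0, 56.4 and 60.8 with enzalutamide. The changes of -0.14 (SE 0.04) and -0.14 (SE 0.04) passed the test, but not under total count scaling (adjusted p = 0.165 and 0.0942), and were lost without abiraterone replicate A or enzalutamide replicate B, respectively (-0.11 in each). In the panel APC was also called lower with talazoparib and with both combinations. Unnamed protein-coding genes on the same strand overlap APC and AXIN2, so some of their reads may be shared. These values describe transcripts, and β-catenin is known to be regulated mainly as a protein.

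AXIN2 (chr17:65528563-65561648, minus strand), itself a widely used target of β-catenin and a brake on it, rose with both ARPi. It was at 2.82, 2.04 and 2.13 CPM in DMSO, 3.75, 3.62 and 3.85 with abiraterone and 3.67, 3.87 and 3.28 with enzalutamide, a change of 0.69 (SE 0.15, adjusted p = 0.000149) and 0.64 (SE 0.15, adjusted p = 0.000364). With olaparib and talazoparib it was at 0.06 (SE 0.15) and 0.02 (SE 0.15), neither past the test. With 5 µM olaparib at day 1 it fell (-0.43, SE 0.12, adjusted p = 0.00414), and at day 5 it was at -0.01 (SE 0.11), not past the test. NKD2 (chr5:1008802-1038943, plus strand), which binds Dishevelled and dampens the pathway, rose from 0.917, 0.960 and 0.988 CPM in DMSO to 2.59, 2.95 and 2.68 with abiraterone and 3.10, 2.67 and 3.42 with enzalutamide. The change was 1.51 (SE 0.20, adjusted p = 5.38e-08) and 1.67 (SE 0.20, adjusted p = 5.08e-09). Its paralogue NKD1 rose by 0.43 (SE 0.11) and 0.43 (SE 0.10) with the ARPi. With olaparib (-0.32, SE 0.11) and talazoparib (-0.32, SE 0.11) NKD1 was called lower, and both calls were lost without DMSO replicate B (-0.28 and -0.29), DMSO replicate C (-0.24 in each) or replicate C of the drug (-0.28 and -0.31). In the time course NKD2 was at -0.64 (SE 0.27) with 1 µM at day 5, a call lost under DESeq2 (adjusted p = 0.110) and on leaving out any of the 6 libraries compared. AXIN1, the scaffold that AXIN2 resembles, ran from -0.28 with 5 µM olaparib at day 5 to -0.02 with 1 µM at day 1 over the 10 comparisons with vehicle. In the panel it passed the test, as lower, with talazoparib and both combinations only.

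Among the TCF/LEF factors, LEF1 and TCF7 rose with both ARPi and TCF7L2 did not. LEF1 (chr4:108047545-108168956, minus strand), which is also a transcriptional target of the pathway, was at 4.21, 3.26 and 3.67 CPM in DMSO, 7.29, 6.61 and 6.78 with abiraterone and 11.1, 10.3 and 10.7 with enzalutamide. The log2 fold change was 0.90 (SE 0.12, adjusted p = 6.99e-08) and 1.53 (SE 0.12, adjusted p = 1.25e-13), and the enzalutamide level was the higher by 0.63 (SE 0.11, adjusted p = 4.34e-05). Talazoparib beside enzalutamide brought LEF1 to 7.14, 6.83 and 6.27 CPM, a difference from enzalutamide alone of -0.66 (SE 0.11, adjusted p = 7.76e-06), while talazoparib alone gave -0.04 (SE 0.12, adjusted p = 0.851). The antisense gene LEF1-AS1 overlaps LEF1. TCF7 (chr5:134114681-134151865, plus strand), known from T cells, was at 0.509, 0.698 and 0.836 CPM in DMSO, 1.71, 1.68 and 1.69 with abiraterone and 1.33, 1.44 and 1.51 with enzalutamide, a change of 1.30 (SE 0.23, adjusted p = 1.38e-05) and 1.05 (SE 0.23, adjusted p = 0.000251).

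TCF7L2 (chr10:112950247-113167678, plus strand) was the highest of the 4 per length, at 2.40 ± 0.0534 CPM per kb in DMSO against 0.693 ± 0.0890 for LEF1. It was at 15.8, 16.1 and 16.5 CPM in DMSO, 12.6, 13.9 and 13.03 with abiraterone and 17.3, 16.2 and 16.6 with enzalutamide. It fell with abiraterone (-0.29, SE 0.07, adjusted p = 0.000278), and enzalutamide gave 0.05 (SE 0.06, adjusted p = 0.573). TCF7L2 made up 75.1% ± 2.12 of the summed TCF/LEF level per length in DMSO and 52.3% ± 0.103 with enzalutamide, and LEF1 21.7% ± 2.43 and 42% ± 0.198. TCF7 passed the test in no time course comparison. TCF7L1 held 0 to 25 counts in all libraries, and 6, 7 and 3 in those of DMSO, so that it was tested mainly through the ARPi groups. It was called higher with enzalutamide (1.86, SE 0.53, adjusted p = 0.00303) and abiraterone (1.40, SE 0.55, adjusted p = 0.0308), the latter lost without abiraterone replicate B (0.92, adjusted p = 0.234), abiraterone replicate C (1.39) or DMSO replicate C (1.03).

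LEF1 responded to 5 µM olaparib in opposite directions by day, while 1 µM at day 5 did not pass the test. At day 1 it was at 3.10, 3.94 and 3.72 CPM in vehicle, 4.49, 4.41 and 4.64 with 1 µM and 5.86, 5.07 and 5.45 with 5 µM. At day 5 it was at 3.81, 3.33 and 3.01 CPM in vehicle, 3.33, 3.52 and 3.55 with 1 µM and 2.07, 2.36 and 1.97 with 5 µM. The 5 µM libraries lay above all vehicle libraries at day 1 and below all of them at day 5, with log2 fold changes of 0.60 (SE 0.11, adjusted p = 2.10e-05) and -0.67 (SE 0.12, adjusted p = 9.83e-06) and a difference between days of -1.27 (SE 0.17, adjusted p = 2.81e-08). The 1 µM call at day 1 (0.33, SE 0.11, adjusted p = 0.0389) was lost under DESeq2 (adjusted p = 0.0637) and on leaving out any of the 6 libraries but vehicle replicate 2 (0.24 to 0.35). TCF7L2 fell with 5 µM at day 5 (-0.38, SE 0.07, adjusted p = 9.43e-06). It was also called lower with 5 µM at day 1, with 1 µM at day 5 and, in the panel, with both combinations.

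The second comparison asked what a PARPi added to an ARPi. Against DMSO, 21 Wnt genes rose and 7 fell with abiraterone plus olaparib, where 31.1% of all genes rose and 31.1% fell, and 21 rose and 7 fell with enzalutamide plus talazoparib (31.2% and 31.3%). Rises of at least 2-fold were called for 10 and 11 Wnt genes, against 10.2% and 9.69% of all genes. Over genes with 10 counts or more in a DMSO library, these were 8 and 9 Wnt genes, against 7.64% and 7.29%. Against the ARPi alone, 16 of 36 differed with abiraterone plus olaparib (8 higher, 8 lower; all genes, 29.2% in either direction) and 15 with enzalutamide plus talazoparib (6 higher, 9 lower; 34.4%). The first of these counts was 9 without abiraterone replicate C.

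FZD4 and RNF43 rose more in the combinations than the sum of the single effects on the log2 scale. FZD4 was at 117, 112 and 111 CPM with abiraterone plus olaparib and 125, 121 and 122 with enzalutamide plus talazoparib, above every library with an ARPi alone, and the interaction was 0.33 (SE 0.05, adjusted p = 4.04e-05) and 0.48 (SE 0.05, adjusted p = 6.96e-08). The RNF43 interaction was 0.43 (SE 0.14, adjusted p = 0.0424) and 0.67 (SE 0.14, adjusted p = 0.00143), the former lost on leaving out any of 7 of the 12 libraries (0.33 to 0.45, lowest without DMSO replicate B). In all, 6 Wnt genes had an interaction for abiraterone with olaparib (5 positive, 1 negative; all genes, 12.8%) and 7 for enzalutamide with talazoparib (5 positive, 2 negative; 12.6%; 5 and 1 under total count scaling). FZD3 also rose further, by 0.21 (SE 0.05) over abiraterone and 0.22 (SE 0.05) over enzalutamide, with no interaction past the test. WNT5A was lower in the combinations than with the ARPi alone, at -0.49 (SE 0.09, adjusted p = 0.000109) and -0.62 (SE 0.09, adjusted p = 2.07e-06), and ROR1 higher, by 0.41 (SE 0.09, adjusted p = 0.000635) and 0.44 (SE 0.09, adjusted p = 0.000187). FZD8 was at 0.879, 0.851 and 0.435 CPM with abiraterone plus olaparib, a difference from abiraterone alone of -0.76 (SE 0.25, adjusted p = 0.0185) that was lost without replicate C of either group (-0.59 and -0.52), and its difference from DMSO was -1.52 (SE 0.24, adjusted p = 9.78e-07).

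Drugs of one class were compared at the doses used, and whether these doses were matched for activity was not tested. Enzalutamide differed from abiraterone for 11 Wnt genes (7 higher, 4 lower with enzalutamide; all genes, 19.8%), among them LEF1, FZD2, FZD5, RNF43 and DKK1 above, and TCF7L2 (0.34, SE 0.06). Talazoparib differed from olaparib for 4 (1 higher, 3 lower; 8.36%): FZD6 (0.16, SE 0.04) was higher, and WNT7B (-0.20, SE 0.05), LRP5 (-0.14, SE 0.04) and LRP6 (-0.16, SE 0.04) were lower. That last count fell to 1 without olaparib replicate A and to 2 without olaparib replicate C, talazoparib replicate B or talazoparib replicate C.

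In the time course, 5 µM differed from 1 µM at day 5 for 17 of 33 Wnt genes (7 higher, 10 lower; all genes, 53.6%). The effect of olaparib differed between day 5 and day 1 for 11 Wnt genes at 1 µM (7 higher, 4 lower; 29.8%) and 19 at 5 µM (11 higher, 8 lower; 54.9%). Under total count scaling these splits were 5 higher and 13 lower for the dose comparison (all genes, 21% and 33.2%), 5 and 6 between days at 1 µM (11.6% and 19.4%) and 6 and 12 at 5 µM (18.6% and 37.4%), where that scaling moved the median of all genes from -0.02 to -0.15. Vehicle libraries differed between the days for 8 Wnt genes (3 higher, 5 lower at day 5; 24.5%), of which AXIN2 (0.44, SE 0.11) and RNF43 (-0.40, SE 0.10) moved most.

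Olaparib at 1 µM for 5 days was measured in both experiments, with separate vehicle libraries. Of 33 Wnt genes tested in both, 21 had the same sign, and 9 passed the test in both, all in the same direction, against 78.2% and 30.1% of the 17960 genes tested in both. Of the 9, WNT4, WNT7B, WNT9A, LRP5, ROR1 and LGR4 were higher, and WNT5A, FZD6 and NKD1 lower. ROR1 rose by 0.43 (SE 0.09) in the panel and 0.99 (SE 0.06) in the time course, and WNT5A was at -0.84 (SE 0.11) and -0.97 (SE 0.09). LGR4, WNT9A, WNT4 and NKD1 are among the calls that rested on single libraries in at least 1 of the 2 experiments, as given above. Across the 33 genes, which are not independent of each other, Pearson's r between the changes was 0.44 and Spearman's rho 0.42, given as a description.

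A further 88 genes of the pathway were followed as a list, of which 69 were tested in the panel. With abiraterone 33 of them rose and 14 fell (all genes, 25.8% and 27.1%), with enzalutamide 33 rose and 15 fell (27.0% and 26.3%), and the median log2 fold change was 0.19 and 0.13. With olaparib 22 rose and 8 fell (19.6% and 16.0%), and with talazoparib 14 rose and 11 fell (18.4% and 15.4%). Over the 63 with 10 counts or more in at least 1 DMSO library, 32 rose and 14 fell with abiraterone (all such genes, 25.1% and 28.8%), and 31 rose and 15 fell with enzalutamide (26.4% and 27.9%). APCDD1, a membrane inhibitor of Wnt signalling, went from 1.63, 1.51 and 1.32 CPM in DMSO to 10.4, 9.47 and 10.0 with abiraterone and 7.04, 7.41 and 9.46 with enzalutamide (2.75, SE 0.15, and 2.43, SE 0.15). ADGRA2, a co-activator of WNT7 signalling, went from 1.26, 1.14 and 0.734 CPM to 4.71, 5.31 and 4.93 and 8.20, 7.64 and 7.18 (2.27, SE 0.17, and 2.90, SE 0.17). WLS, which carries Wnt ligands to the cell surface, rose by 1.14 (SE 0.27) and 1.17 (SE 0.27), whereas PORCN, which attaches the lipid they need for secretion, was at 0.01 (SE 0.10) and 0.15 (SE 0.10) and did not pass the test.

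The co-repressor TLE2 rose by 0.96 (SE 0.11) and 1.18 (SE 0.11) with the ARPi. DRAXIN, which binds LRP6, rose by 3.141 (SE 0.34) with enzalutamide plus talazoparib, and the receptor FZD9 fell with abiraterone plus olaparib (-1.26, SE 0.12). TNKS and TNKS2, the tankyrases that modify AXIN and belong to the PARP family, were at 0.20 (SE 0.04) and 0.19 (SE 0.03) with enzalutamide. With abiraterone TNKS2 was at 0.38 (SE 0.03) and TNKS at 0.09 (SE 0.04), the latter not past the test. With the PARPi the largest changes were those of PRICKLE2 (0.62, SE 0.24), LMBR1L (0.49, SE 0.08) and KREMEN2 (0.43, SE 0.10) for olaparib, and of CTBP1 (-0.46, SE 0.04), VANGL1 (-0.39, SE 0.05) and LMBR1L (0.39, SE 0.08) for talazoparib, among genes that averaged 50 counts or more. The PRICKLE2 call was lost without DMSO replicate A or C (0.51 in each) or olaparib replicate B or C (0.53 in each).

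A list of 27 reported targets of Wnt signalling held 17 tested genes in the panel, of which 12 rose and 3 fell with each ARPi, 7 rose and 1 fell with olaparib, and 7 rose and 3 fell with talazoparib. Over all genes the shares that rose and fell were 25.8% and 27.1% with abiraterone, 27.0% and 26.3% with enzalutamide, 19.6% and 16.0% with olaparib, and 18.4% and 15.4% with talazoparib. Of the 17, 16 had 10 counts or more in a DMSO library, and 11 of these rose and 3 fell with each ARPi. IRX3 rose by 1.87 (SE 0.09) and 2.08 (SE 0.09) with the ARPi, and the ephrin receptor EPHB2 by 1.49 (SE 0.15) and 1.73 (SE 0.14). TNFRSF19, of the TNF receptor family, fell with the ARPi (-1.46, SE 0.11, and -1.54, SE 0.11) and rose by 0.62 (SE 0.10) and 0.70 (SE 0.10) with the PARPi. ENC1 rose by 2.15 (SE 0.07) and 1.99 (SE 0.07) in the combinations. SOX9, a transcription factor of prostate epithelium, was at 4.31, 3.78 and 3.62 CPM in DMSO, 8.32, 7.85 and 7.05 with olaparib and 6.09, 8.11 and 7.04 with talazoparib, and at 28.5, 32.3 and 29.4 CPM with 5 µM olaparib at day 5 against 4.14, 3.93 and 3.27 in vehicle (2.99, SE 0.08). ASCL2 was at 0.65 (SE 0.23) with talazoparib, a call lost without DMSO replicate A or B (0.61 and 0.63) or talazoparib replicate A or B (0.63 and 0.53).

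CCND1 and MYC, the targets most often named, did not move together. CCND1 (cyclin D1) rose by 0.37 (SE 0.03) with abiraterone and 0.16 (SE 0.03) with enzalutamide. MYC was at 153, 137 and 128 CPM in DMSO, 111, 102 and 103 with abiraterone and 104, 92.5 and 97.3 with enzalutamide, with log2 fold changes of -0.40 (SE 0.06) and -0.51 (SE 0.06), and it rose by 0.31 (SE 0.06) and 0.39 (SE 0.06) with olaparib and talazoparib.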

How the data were processed

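RNA sequencing of C4-2B cells gave 39 libraries in 13 groups of 3, in a drug panel of 21 and an olaparib time course of 18. Per the labels and the study's methods, the authors prepared stranded mRNA libraries, trimmed reads with Trim Galore, aligned them to GRCh38 with STAR and quantified GENCODE genes with Salmon, and deposited estimated counts per gene as whole numbers. How the estimates were made whole and whether strand was used are not given in the sources used here, so paralogs and overlapping genes could share reads.

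These counts were tested with edgeR 4.0.16 (R 4.3.3): TMM scaling, filterByExpr by group, a robust quasi-likelihood fit over all groups of an experiment with no covariates, and Benjamini-Hochberg adjustment over all 18625 genes tested in the panel or 18502 in the time course. A gene was called at an adjusted p below 0.05. The SE is the absolute log2 fold change divided by the square root of F. Levels are TMM-scaled CPM, the count scaled to a common library total, scaled separately in each experiment, so levels are not compared between them. For genes of at most 3 counts in every vehicle library, pooled counts were compared with an exact 95% interval, which covers counting error only. CPM per kb used merged exon lengths of GENCODE on GRCh38. Promoters are RefSeq sequences.

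Genes named with values passed the test at 2-fold or more in at least 1 of 10 comparisons with vehicle and had 50 counts or more on average in whichever group was higher, or belonged to a core set (LRP6, AXIN2, APC, CTNNB1 and TCF7L2). Of the other lists, the 3 largest changes per panel comparison and a few fixed genes are named. Genes outside this rule (among them FZD1, FZD6, LRP5, ROR2, RYK, DKK1, SFRP1, NKD1, WNT7B, TCF7L1 and ZNRF3) were named after their values were seen. The genes and lists were chosen with earlier results of these data known. Alternatives were DESeq2 1.42.0, other scalings and filters, only the groups compared, a replicate block and leaving out each library. The test was checked on simulated counts.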

Additional observations from a re-analysis of the deposited data

Results flagged for a closer look

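Each value here is a difference between 2 effects under the same contrast that passed the edgeR interaction test (Benjamini-Hochberg adjusted p below 0.05). Positive values mean that the effect was higher in the second setting or that the combination exceeded the sum of the single drugs, on the log2 scale.

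For abiraterone with olaparib the interaction was 0.33 for FZD4, 0.20 for FZD6, 0.24 for RYK, 0.43 for RNF43, 0.13 for CTNNB1 and -0.34 for LRP5. For enzalutamide with talazoparib it was 0.27 for FZD1, 0.48 for FZD4, 0.23 for FZD5, 0.22 for LRP6, 0.67 for RNF43, -0.76 for WNT10A and -0.62 for LEF1. FZD4 and RNF43 were positive in both combinations, which share the DMSO libraries. Leaving out at least 1 single library ended the calls of RNF43 and CTNNB1 for abiraterone with olaparib, and of WNT10A, FZD1, FZD5 and LRP6 for enzalutamide with talazoparib.

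For olaparib at 1 µM the effect at day 5 minus that at day 1 was 1.02 for ROR1, 0.35 for LGR4, 0.27 for WNT7B, 0.19 for FZD4, 0.16 for LRP5, 0.14 for APC and 0.12 for CTNNB1. It was negative for WNT5A (-0.78), FZD8 (-0.56), FZD6 (-0.29) and ZNRF3 (-0.26). At 5 µM it was 1.87 for ROR1, 1.27 for WNT2B, 0.90 for WNT9A, 0.81 for WNT4, 0.49 for FZD4, 0.46 for WNT7B, 0.41 for AXIN2, 0.33 for FZD1, 0.24 for CTNNB1, 0.18 for LRP5 and 0.16 for APC. It was negative for WNT5A (-1.47), FZD2 (-1.41), LEF1 (-1.27), FZD8 (-0.66), FZD6 (-0.59), WNT10B (-0.58), NKD1 (-0.45) and ZNRF3 (-0.30). The 5 µM and 1 µM values share their vehicle libraries. Leaving out at least 1 single library ended the calls of APC, FZD8 and LRP5 at 1 µM and of AXIN2, FZD8, WNT2B and WNT4 at 5 µM, and the WNT2B value was 2.19 without day 5 vehicle replicate 1.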

How the results depend on the processing

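Over the 348 values of Wnt genes against vehicle, 202 of them called, RLE scaling and a filter of at least 10 counts in 3 libraries changed no call. DESeq2 lost 11 calls, no filter 11, only the groups compared 7, and total count scaling 9. Total count scaling added 19 calls and turned 1 value, CTNNB1 with 5 µM olaparib at day 5, from 0.06 to -0.022 (edgeR adjusted p = 0.316), and the cause was not tested. Among their 348 values in the other comparisons, 114 of them called, DESeq2 lost 7 calls, no filter 13, only the groups compared 5, total count scaling 11 and RLE scaling 2, and 0 changed sign. Counting only called Wnt genes whose log2 change was 1 or more in size left 11 with abiraterone, 12 with enzalutamide, 12 for the abiraterone combination and 14 for the enzalutamide combination (all genes, 1959, 2059, 2692 and 2593 of 18625). It left 1 for enzalutamide against abiraterone (all genes, 229) and 0 for olaparib, talazoparib, each combination against its ARPi, both drug interactions and talazoparib against olaparib (17 to 502). In the time course it left 8 with 5 µM and 1 with 1 µM at day 5 (all genes, 3038 and 738 of 18502), 0 at 5 and 1 µM at day 1 (659 and 118), 5 for 5 µM against 1 µM (1235), 1 and 5 for the dose by day interactions at 1 and 5 µM (433 and 2243), and 0 for vehicle between days (147). Counting only genes with 10 counts or more in a vehicle library, chosen after seeing the data, changed no count of called Wnt genes against vehicle by over 1.5 times. The count of 7 for 1 µM at day 1 was 4 with DESeq2, 4 with only the groups compared, and 3 to 9 on leaving out 1 library (3 without day 1 vehicle replicate 1 or 1 µM replicate 3). Leaving out 1 library gave 9 to 14 for abiraterone plus olaparib against abiraterone (16 with all) and 1 to 5 for talazoparib against olaparib (4 with all). With 1 library left out, 109 of 1212 called values against vehicle and 136 of 942 in the other comparisons lost the call, and 0 changed sign. Replicate labels did not pair the samples: correlations of deviations ran from -0.069 to 0.064 in the panel and -0.133 to 0.116 in the time course, and the replicate block lost 1 call, FZD2 with 5 µM at day 1 (adjusted p = 0.0576). Low counts limit ROR2, DKK1, SFRP1, TCF7L1, WNT2B and NOTUM most.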

Other observations

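Of the further pathway genes, 68 were tested in the time course, and 34 of them rose and 20 fell with 5 µM olaparib at day 5, against 23 and 9 with 1 µM. Of the reported targets, 18 were tested there, and 12 rose and 4 fell with 5 µM at day 5, against 10 and 1 with 1 µM. Over all genes, 34.4% rose and 33.9% fell with 5 µM at day 5, and 23.4% and 22.9% with 1 µM. Among genes with 10 counts or more in a day 5 vehicle library, 32 of 65 further pathway genes rose and 20 fell with 5 µM, as did 10 and 4 of 15 targets, against 33.5% and 35.2% of all such genes. WNT9B, a ligand outside the 44 genes that was noticed after its values were seen, was at 0.286, 0.244 and 0.257 CPM in day 5 vehicle, 1.26, 1.06 and 1.37 with 1 µM and 2.83, 2.44 and 2.90 with 5 µM. Its log2 fold change was 2.21 (SE 0.27, adjusted p = 1.58e-08) with 1 µM and 3.35 (SE 0.26, adjusted p = 3.52e-14) with 5 µM (edgeR quasi-likelihood test). In the panel it was at 0.611, 0.320 and 0.203 CPM in DMSO, 1.37, 0.762 and 1.58 with olaparib and 1.12, 0.968 and 1.27 with talazoparib, with changes of 1.75 (SE 0.32, adjusted p = 4.72e-05) and 1.61 (SE 0.32, adjusted p = 0.000163).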
